A study of Homo sapiens with 10 samples.

Results

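The genes of the early secretory pathway were examined in ST486 cells. This human line comes from a Burkitt's lymphoma, a B cell malignancy of germinal centre type that carries a MYC translocation. They comprised 48 genes for protein entry into the endoplasmic reticulum (ER), N-linked glycosylation and the vesicle coats between ER and Golgi. Cells had been transduced for 60 h with a lentiviral shRNA against STK38, a kinase of the NDR family, or with a non-target control shRNA, with 5 Affymetrix U95Av2 arrays in each group. Each gene was read from the probe set that the platform annotation assigns to it alone, and from the brightest where there were several (highest mean over all 10 arrays). Of the 48 genes, 44 had such a probe set, out of 8226 genes with one in the whole table. SRP68, SEC61G, KDELR2 and SURF4 had none and were not analysed here. All cells in this series carried a lentiviral vector, so no untransduced cells enter any comparison. The labels name a single STK38 hairpin, so effects of that hairpin on other transcripts and effects of STK38 cannot be told apart. Nothing in the labels says whether replicates were separate cultures, and the p-values therefore measure only the spread between arrays, which may be technical.

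Secreted and membrane proteins enter the ER co-translationally. The signal recognition particle binds the signal sequence on the ribosome and docks at its receptor, the SEC61 channel passes the chain through the membrane, signal peptidase cuts it and oligosaccharyltransferase transfers a preassembled glycan to it. COPII coats then carry cargo out of the ER, and COPI coats return escaped ER residents and transport machinery. In B cells this pathway makes the B cell receptor, and plasma cells expand it under the transcription factor XBP1 to secrete antibody.

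Signals are log2 values as normalized by the authors, and a fold is the linear ratio of a log2 difference (STK38 shRNA minus non-target shRNA throughout). Array medians ran from 2.12 to 2.25. STK38 itself fell 4.56-fold at its brightest probe set and 2.23-fold and 1.76-fold at its others, and MYC fell 2.61-fold at its brightest, with no overlap between the groups at any of these. Among the B cell markers measured, CD79A, CD79B, MS4A1, CD22 and BLK were above background on every array, while PAX5 and CD37 were above it on none. CD3D, CD3E, CD3G, CD2, CD14, LYZ, CSF1R, CD68, EPCAM, CDH1, COL1A2, COL3A1, PECAM1, VWF, HBB and ALAS2, markers of other cell types, were not above background on any array. Against a lower background taken from 17 controls, without the reverse-strand ACTB and GAPDH probe sets, CD14 was over it on 3 STK38 shRNA and 4 control arrays, COL1A2 on 1 STK38 shRNA array and LYZ and PECAM1 on 1 control array each. Of those lists, by the first background, LCK exceeded it on 4 arrays with the STK38 shRNA and all 5 with the non-target shRNA, and TRBC1 and KRT8 on all 10. CD247 and COL1A1 did so on 1 control array each, and ITGAM, KRT18 and KRT19 on 1 STK38 shRNA array each. Against the lower background ITGAM was over on all 10 arrays and CD247 on 5 control and 0 STK38 shRNA arrays. COL1A1, KRT18 and KRT19 were over it on some arrays of each group. All 3 T cell markers tested were called lower (CD247 -0.55, LCK -1.22 and TRBC1 -0.52, log2 fold changes), where 15.8% of all probe sets fell. Of the 5 B cell markers tested, CD79A was called higher (log2 fold change 0.49, limma adjusted p = 0.000689) and 4 were not called. Of all probe sets 14.1% rose. The summed log2 level of the 7 T cell markers ran from 18.7 to 19.6 with the STK38 shRNA and from 20.8 to 21.5 with the non-target shRNA, and its part in the results was not tested. STK38 shRNA replicate 4 stood apart. Its mean correlation with the other arrays of its group was 0.982, where the next lowest array was at 0.992, and it gave the lowest value of its group for 18 of the 44 genes.

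Secretory pathway genes changed in both directions, in several cases within the same complex. Of all probe sets tested, 14.1% rose and 15.8% fell, so a mix of directions is not particular to these genes. Of the 43 genes that passed the filter on dim probe sets (SEC61A1 did not), 11 fell, 6 rose and 26 were not called by limma at an adjusted p under 0.05. The share called was 39.5%, beside 29.9% of all 7535 probe sets tested and 31.0% of the main probe sets of all genes tested. Falls made up 25.6% of the genes, where 15.8% of all probe sets fell, and rises 14.0%, where 14.1% of all probe sets rose. The groups did not overlap for 14 of the 43 genes, or 32.6%, beside 22.1% of all probe sets. In 5 of these genes the STK38 shRNA arrays were all higher, beside 9.33% of all probe sets, and in 9 all lower, beside 12.8%. At these brightest probe sets RPN2 and SRP72 fell at least 2-fold and no member rose by as much, beside 2.91% and 1.33% of all probe sets. TMED10 also fell by more than that at its other probe set and with the mean of its probe sets. Because so many probe sets changed on these arrays, these counts stand close to the background for rises and above it for falls, and no test of that excess was made. The genes were chosen with earlier results of these data known and the background was not matched for signal, so no conclusion is drawn from that excess. The median log2 fold change over the 43 genes was -0.040, beside 0.018 over all probe sets tested, and it was 0.021 without STK38 shRNA replicate 4. Without that array 7 genes rose and 11 fell. In a bulk measurement a change in RNA per cell and a change in the mix of cells cannot be told apart.

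**Figure D1:**
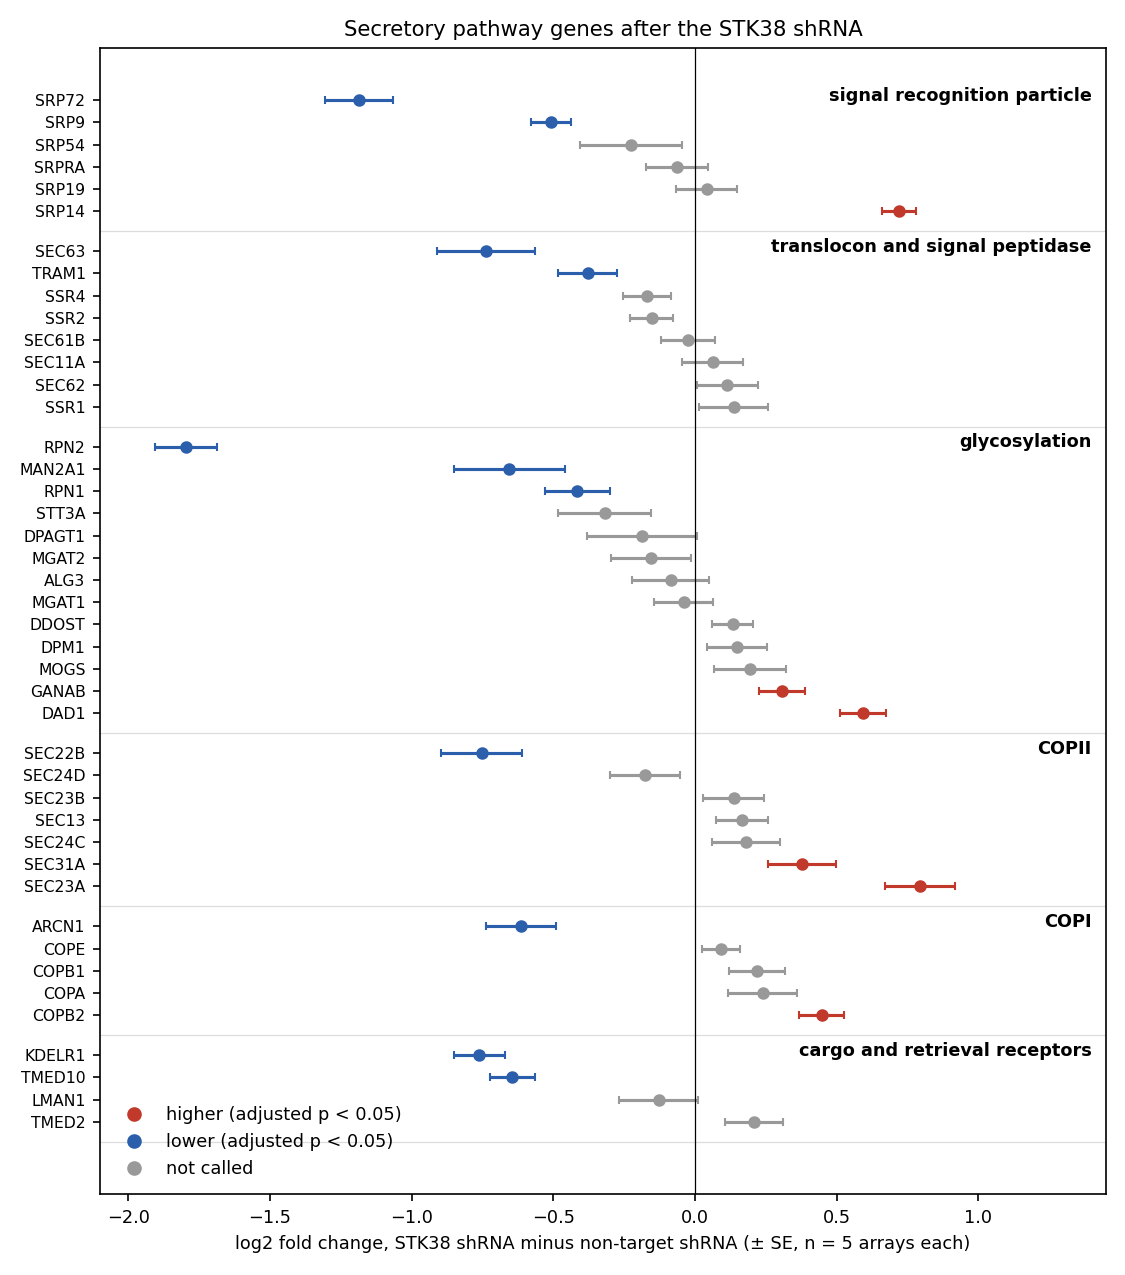
Log2 fold change (STK38 shRNA minus non-target shRNA, horizontal axis) of the 43 secretory pathway genes tested, grouped by role, with bars of 1 standard error from limma (5 arrays per group). Red points rose, blue points fell and grey points were not called; RPN2 (-1.80) and SRP72 (-1.19) lie farthest to the left and SEC23A (0.79) and SRP14 (0.72) farthest to the right.

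Among 6 tested genes of the signal recognition particle and its receptor, 1 rose and 2 fell (50% called, beside 29.9% of all probe sets). SRP9 and SRP14 form the heterodimer that slows elongation while the ribosome is brought to the membrane. SRP14 read 9.97, 9.90, 9.84, 9.98 and 9.80 on the STK38 shRNA arrays, against 9.06, 9.12, 9.19, 9.27 and 9.27 on the non-target arrays. Every STK38 shRNA array was above every control array, and SRP14 rose 1.65-fold (log2 change 0.72 with SE 0.061, limma adjusted p = 6.40e-07). SRP9, its partner, read 8.71, 8.61, 8.55, 8.56 and 8.60 with the STK38 shRNA and 9.08, 9.01, 9.002, 9.15 and 9.32 with the non-target shRNA. Here every STK38 shRNA array lay below every control array, and SRP9 fell 1.42-fold (log2 change -0.51 with SE 0.070, limma adjusted p = 6.46e-05).

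SRP72, which with SRP68 forms the other protein heterodimer of the particle, had the largest fall after RPN2 when each of the 43 genes was read from its brightest probe set. It read 4.65, 4.40, 4.53, 4.28 and 4.60 on the STK38 shRNA arrays, against 5.69, 5.97, 5.63, 5.62 and 5.51 on the control arrays. The groups were separated by more than their whole ranges, and the fall was 2.28-fold (log2 change -1.19 with SE 0.12, limma adjusted p = 3.58e-06). Its other probe set fell as well, by 0.77 on the log2 scale (limma adjusted p = 0.000395), with 2 of 5 arrays of the STK38 shRNA over background, so that size is less certain. SRP54, the GTPase that binds the signal sequence, read 5.67, 6.03, 5.07, 5.18 and 5.93 with the STK38 shRNA, against 5.90, 5.77, 5.99, 5.88 and 5.47 in controls. Replicates 3 and 4 of the STK38 shRNA group were low, the groups overlapped, and SRP54 was not called (log2 fold change -0.23, SE 0.18, adjusted p = 0.412). SRP19, an assembly factor of the particle, and SRPRA, the receptor subunit that docks it at the ER, differed by 0.041 and -0.064 on the log2 scale (adjusted p = 0.833 and 0.735).

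Of 8 translocon and signal peptidase genes tested, 2 fell and 0 rose. The share called was 25%, below the 29.9% of all probe sets. SEC63, a membrane J-protein that recruits the chaperone BiP to the channel, read 5.40, 5.73, 5.71, 5.05 and 5.84 with the STK38 shRNA and 5.87, 6.53, 6.65, 6.31 and 6.06 with the non-target shRNA. The groups came close, at 5.84 and 5.87, without overlapping, and SEC63 fell 1.67-fold (log2 change -0.74 with SE 0.17, limma adjusted p = 0.00442). TRAM1, a membrane protein beside the channel that aids insertion of nascent chains, read 5.81, 5.95, 5.58, 5.85 and 5.84 on the STK38 shRNA arrays, against 6.19, 6.16, 6.40, 6.05 and 6.14 on the control arrays. All 5 of its STK38 shRNA values lay below the controls, and TRAM1 fell 1.30-fold (log2 change -0.38 with SE 0.10, limma adjusted p = 0.0118). That call was lost when arrays were centred on their 75th percentile (log2 fold change -0.33, adjusted p = 0.0562).

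The other translocon genes were not called. SSR2 and SSR4, subunits of the translocon-associated protein complex, had log2 fold changes of -0.15 (adjusted p = 0.153) and -0.17 (adjusted p = 0.157). SSR2 read 8.09, 8.23, 7.93, 8.06 and 8.12 with the STK38 shRNA, against 8.09, 8.22, 8.27, 8.28 and 8.34 in controls. SSR4 read 7.80, 7.92, 8.12, 8.00 and 7.79 with the STK38 shRNA, against 8.25, 8.10, 8.13, 8.03 and 7.97 in controls. In each of these genes the 2 groups overlapped. Another subunit, SSR1, had 0.14 at its brighter probe set and 0.074 at the other (log2 fold changes). With array weights SSR1 (0.26, adjusted p = 0.0418) and SSR4 (-0.21, adjusted p = 0.0380) were called. SEC61B, the beta subunit of the channel, differed by -0.024, SEC62, a partner of SEC63, by 0.11 at the brighter and -0.15 at the other probe set, and SEC11A, the catalytic subunit of signal peptidase, by 0.062, with adjusted p-values from 0.507 to 0.894. SEC61A1, the pore-forming subunit, was not above background on any array (1.70 to 2.28 with the STK38 shRNA and 1.73 to 2.16 with the non-target shRNA), so its probe set gives no change. Against the lower background it was above on 1 STK38 shRNA and 3 control arrays.

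Of 13 glycosylation genes, 3 fell, 2 rose and 8 were not called (38.5% called, beside 29.9% of all probe sets). The largest change at the brightest probe sets of the 43 genes was in oligosaccharyltransferase. RPN2, one of its ribophorin subunits, read 6.78, 6.76, 6.27, 6.58 and 6.82 on the STK38 shRNA arrays, against 8.37, 8.61, 8.43, 8.28 and 8.51 on the non-target arrays. No array of either group came within 1 log2 unit of the other group. The fall was 3.48-fold (log2 change -1.80 with SE 0.11, limma adjusted p = 2.61e-08), which ranked 37 from the lowest among the 7535 probe sets. A single probe set measured RPN2, so the size rests on it alone.

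DAD1, a small membrane subunit of the same enzyme, moved the other way. It read 7.53, 7.44, 7.71, 7.55 and 7.62 with the STK38 shRNA and 7.00, 6.84, 6.97, 7.02 and 7.04 with the non-target shRNA. Those groups did not overlap, and DAD1 rose 1.51-fold (log2 change 0.59 with SE 0.081, limma adjusted p = 5.72e-05). RPN1, the other ribophorin, read 5.90, 5.95, 6.16, 5.88 and 6.20 on the STK38 shRNA arrays, against 6.50, 6.14, 6.68, 6.45 and 6.40 on the control arrays. Non-target replicate 2 lay among the STK38 shRNA values, and RPN1 fell 1.33-fold (log2 change -0.42 with SE 0.11, limma adjusted p = 0.0123). DDOST, the subunit next to the catalytic one, and STT3A, the catalytic subunit of the channel-bound enzyme, were not called (log2 fold changes 0.13 and -0.32, adjusted p = 0.203 and 0.173). STT3A was lowest on STK38 shRNA replicate 4, at 3.50, with 4.04 to 4.33 for the rest of that group and 4.13 to 4.61 in controls.

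Enzymes that trim the glycan after transfer changed in opposite directions. GANAB, the catalytic subunit of glucosidase II, ran from 8.10 to 8.23 with the STK38 shRNA, against 7.68 to 8.05 with the non-target shRNA, and rose 1.24-fold without overlap (log2 change 0.31 with SE 0.081, limma adjusted p = 0.00978). MOGS, glucosidase I, had a log2 fold change of 0.19 (adjusted p = 0.304) and was called without STK38 shRNA replicate 4 (0.29, adjusted p = 0.0367). MAN2A1, a Golgi alpha-mannosidase, read 4.36, 4.44, 3.96, 3.52 and 4.46 with the STK38 shRNA, against 4.33, 4.90, 5.01, 5.13 and 4.65 in controls. Non-target replicate 1 was as low as the STK38 shRNA arrays, and STK38 shRNA replicate 4 was the lowest of all. MAN2A1 fell 1.58-fold (log2 change -0.66 with SE 0.20, limma adjusted p = 0.0193), and the call was lost without non-target replicate 3 (adjusted p = 0.0523) or 4 (adjusted p = 0.0584).

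The members that build the lipid-linked glycan and those that start its branches were not called. DPAGT1, which makes the first step on dolichol phosphate, had -0.19, ALG3, a mannosyltransferase of the pathway, -0.086, and DPM1, the catalytic subunit of dolichol-phosphate mannose synthase, 0.15 (log2 fold changes, adjusted p from 0.354 to 0.709). MGAT1 and MGAT2, the Golgi N-acetylglucosaminyltransferases that begin the branches, had -0.040 and -0.16 (adjusted p = 0.833 and 0.484). MGAT2 exceeded background on 2 arrays with the STK38 shRNA and 3 with the non-target shRNA, which limits what its probe set can show. Among related genes of the further list below, MPDU1 (log2 fold change 0.44) and DOLK (0.51) were called higher (limma adjusted p = 0.0154 and 0.00814). MPI was called lower (-0.64, limma adjusted p = 0.00118), and ALG8, DPM2, DOLPP1 and PMM1 were not called. DOLK exceeded background on 4 STK38 shRNA and 0 control arrays, so its size is uncertain.

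**Figure D2:**
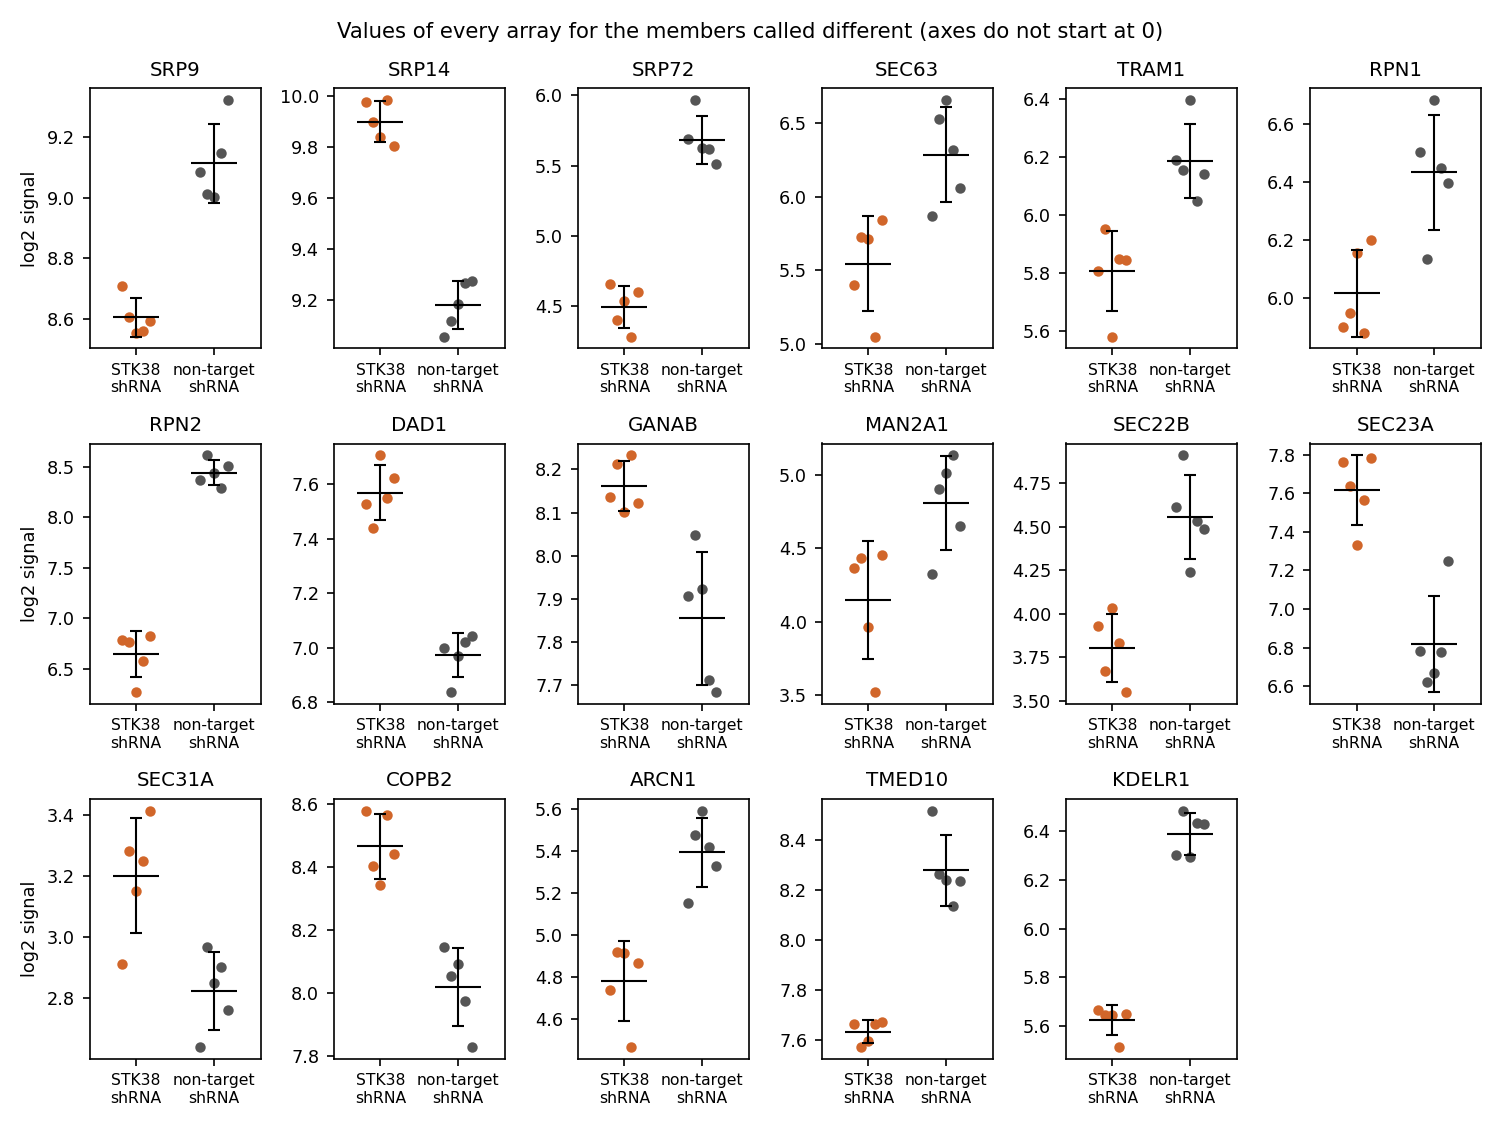
Log2 signal (vertical axis, a separate range in each panel) of the 17 secretory pathway genes called different, with each array as a point (STK38 shRNA orange, non-target shRNA grey), the group mean as a line and 1 SD as bars (n = 5 each). RPN2, SRP14, DAD1 and KDELR1 show wide gaps between the groups, while RPN1, MAN2A1 and SEC31A overlap.

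Of 7 COPII genes, 2 rose and 1 fell (42.9% called, beside 29.9% of all probe sets). SEC23A, an inner coat subunit that activates the GTPase SAR1, read 7.76, 7.64, 7.33, 7.56 and 7.78 on the STK38 shRNA arrays, against 6.78, 6.62, 6.67, 6.78 and 7.25 on the control arrays. Non-target replicate 5 was high, yet the groups did not overlap, and SEC23A rose 1.73-fold (log2 change 0.79 with SE 0.12, limma adjusted p = 0.000184), the largest rise of the 43 genes. SEC31A, of the outer coat, read 2.91, 3.28, 3.15, 3.25 and 3.42 with the STK38 shRNA and 2.64, 2.97, 2.85, 2.90 and 2.76 with the non-target shRNA. STK38 shRNA replicate 1 lay inside the control range. SEC31A rose 1.30-fold (log2 change 0.38 with SE 0.12, limma adjusted p = 0.0249), and its call was lost without STK38 shRNA replicate 2 or 5 or non-target replicate 1 or 5 (adjusted p from 0.0541 to 0.0699). On non-target replicate 5 it read 2.76 beside a background of 2.66 for that array, so that size is uncertain.

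SEC22B, a SNARE protein that COPII vesicles carry for fusion, went the other way. It read 3.93, 3.67, 4.03, 3.83 and 3.55 with the STK38 shRNA, against 4.62, 4.91, 4.24, 4.53 and 4.49 with the non-target shRNA. The groups did not overlap, and SEC22B fell 1.69-fold (log2 change -0.75 with SE 0.14, limma adjusted p = 0.000954). SEC24C, a cargo-binding inner coat subunit, read 5.24, 5.46, 5.40, 4.94 and 5.31 on the STK38 shRNA arrays and 4.98, 5.16, 5.27, 5.05 and 4.99 on the control arrays. STK38 shRNA replicate 4 was the lowest array for it, the groups overlapped, and SEC24C was not called (log2 fold change 0.18, adjusted p = 0.312). SEC13, the partner of SEC31A in the outer coat, had 0.17 and 0.092 at its probe sets, SEC24D, another cargo-binding subunit, -0.18, and SEC23B, the other SEC23 isoform, 0.14 (log2 fold changes), none of them called. SEC23B exceeded background on 3 arrays with the STK38 shRNA and 2 with the non-target shRNA.

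Of 5 COPI genes, 1 rose and 1 fell (40% called, beside 29.9% of all probe sets). The others had positive differences that were not called. COPB2, the beta prime subunit, which binds retrieval signals of cargo, read 8.58, 8.40, 8.34, 8.56 and 8.44 with the STK38 shRNA and 8.15, 8.05, 8.09, 7.97 and 7.83 with the non-target shRNA. Without overlap between the groups, it rose 1.36-fold (log2 change 0.45 with SE 0.079, limma adjusted p = 0.000523). ARCN1, the delta subunit, read 4.74, 4.92, 4.91, 4.46 and 4.86 on the STK38 shRNA arrays, against 5.15, 5.47, 5.59, 5.42 and 5.33 on the control arrays. It lay lower on every STK38 shRNA array than on any control array and fell 1.53-fold (log2 change -0.61 with SE 0.12, limma adjusted p = 0.00159).

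The remaining coatomer subunits overlapped between the groups. COPA, the alpha subunit, read 6.37, 5.92, 6.39, 6.05 and 6.16 with the STK38 shRNA, against 5.95, 5.88, 6.20, 5.96 and 5.71 in controls (log2 fold change 0.24, SE 0.12, adjusted p = 0.165). COPB1, the beta subunit, read 7.79, 7.69, 7.45, 7.65 and 7.77 with the STK38 shRNA, against 7.60, 7.32, 7.27, 7.42 and 7.66 in controls (log2 fold change 0.22, SE 0.098, adjusted p = 0.115). Both leaned upward without passing the test, and COPB1 was called with quantile normalization (adjusted p = 0.049) and with array weights (adjusted p = 0.0122). COPE, the epsilon subunit, had a log2 fold change of 0.092 (adjusted p = 0.352).

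Promoter sequences of the COPI genes and SEC23A are shown as examples with and without an exact match to a short motif. They were picked with the matches and the changes known. COPA, COPB1 and COPE hold it and were not called, and ARCN1, which fell, has no exact match. The part of the motif in any change was not tested. Promoters (250 bases before to 50 after the start site, RefSeq, GRCh38.p14) were found for 42 of the 48 genes; SRPRA, TRAM1, RPN1, MOGS, SEC24D and KDELR2 had no entry. The core TGACGTG, part of sites bound by ATF6 and XBP1 and close to the cyclic AMP response element, was searched on both strands (CACGTCA on the other). It occurred in 9 of the 42 promoters, or 21.4%, beside 2.00% of 27305 promoters of the same length and 2.60% of the 4494 promoters of genes tested on the arrays. On the printed strand alone it occurred in 3 of the 42, or 7.14%, beside 1.12% of all promoters. A single start site was used per gene, and the promoters set beside these were not matched for base composition. The 9 genes were SRP19, SEC62, MGAT1, SEC13, SEC23A, COPA, COPB1, COPB2 and COPE, so 4 of the 5 COPI genes held it and ARCN1 did not. In COPA it starts 5 bases after the start site, in COPE and SEC23A 4 bases before it, in COPB1 47 bases before, and in COPB2 at 2 places, 162 bases before and 31 bases after. The promoters lie at chr1:160343201-160343500 (COPA, minus strand), chr11:14499762-14500061 (COPB1, minus strand), chr3:139389631-139389930 (COPB2, minus strand), chr19:18919338-18919637 (COPE, minus strand), chr14:39103186-39103485 (SEC23A, minus strand) and chr11:118572159-118572458 (ARCN1, plus strand), each printed 5′ to 3′ along its gene with matches to the core in capitals:
COPA: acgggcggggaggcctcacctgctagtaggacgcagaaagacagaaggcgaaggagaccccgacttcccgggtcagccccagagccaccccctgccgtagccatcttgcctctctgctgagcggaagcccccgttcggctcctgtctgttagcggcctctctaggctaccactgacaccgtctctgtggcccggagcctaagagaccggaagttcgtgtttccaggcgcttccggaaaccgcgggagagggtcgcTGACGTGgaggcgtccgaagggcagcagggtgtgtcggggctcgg
COPB1: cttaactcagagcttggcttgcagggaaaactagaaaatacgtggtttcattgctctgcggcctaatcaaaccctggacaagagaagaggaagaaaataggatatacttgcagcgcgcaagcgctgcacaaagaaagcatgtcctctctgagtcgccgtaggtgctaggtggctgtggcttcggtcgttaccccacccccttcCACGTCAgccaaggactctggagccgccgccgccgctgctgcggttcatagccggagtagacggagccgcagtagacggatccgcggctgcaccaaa
COPB2: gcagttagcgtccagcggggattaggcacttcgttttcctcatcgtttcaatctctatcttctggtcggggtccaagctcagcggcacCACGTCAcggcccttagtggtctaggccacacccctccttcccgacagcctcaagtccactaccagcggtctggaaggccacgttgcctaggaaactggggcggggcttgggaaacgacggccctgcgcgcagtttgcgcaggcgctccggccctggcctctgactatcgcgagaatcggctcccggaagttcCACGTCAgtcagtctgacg
COPE: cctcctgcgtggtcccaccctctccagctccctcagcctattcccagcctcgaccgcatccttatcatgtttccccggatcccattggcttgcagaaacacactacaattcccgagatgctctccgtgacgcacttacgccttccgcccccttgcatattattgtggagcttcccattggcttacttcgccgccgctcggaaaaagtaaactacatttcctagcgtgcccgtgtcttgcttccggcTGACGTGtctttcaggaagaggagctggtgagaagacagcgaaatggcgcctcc
SEC23A: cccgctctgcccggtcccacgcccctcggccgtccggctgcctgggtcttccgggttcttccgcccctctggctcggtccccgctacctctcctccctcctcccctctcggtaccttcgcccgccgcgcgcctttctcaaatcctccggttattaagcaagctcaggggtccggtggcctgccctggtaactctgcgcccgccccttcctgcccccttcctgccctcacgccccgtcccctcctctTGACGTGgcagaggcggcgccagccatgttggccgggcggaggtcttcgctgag
ARCN1: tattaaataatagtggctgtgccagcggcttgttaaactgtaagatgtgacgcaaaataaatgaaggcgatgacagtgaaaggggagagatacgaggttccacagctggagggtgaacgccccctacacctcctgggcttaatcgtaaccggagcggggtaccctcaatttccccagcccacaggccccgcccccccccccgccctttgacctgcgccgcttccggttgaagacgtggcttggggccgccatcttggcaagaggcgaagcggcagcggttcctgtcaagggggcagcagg

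Of the 9 genes whose promoter held the core, 2 rose (SEC23A and COPB2), 0 fell and 7 were not called, with log2 fold changes from -0.040 to 0.79 and a median of 0.17. Of the 29 other tested genes with a promoter, 4 rose and 9 fell, with a median of -0.15. Of all probe sets tested, 14.1% rose and 15.8% fell, and 2 rises and 0 falls among 9 genes lie near those shares. These counts describe the genes and no test was made of them. The full ER stress response element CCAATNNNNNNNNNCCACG and its second form ATTGGNCCACG matched none of the 42 promoters, beside 22 and 15 of the 27305. The E-box CACGTG, which MYC with MAX can bind, matched 3 promoters (SSR1, DDOST and TMED10), or 7.14%, beside 7.43% of all promoters and 10.4% of those of genes tested. A CCAAT box, searched as CCAAT, matched 18, or 42.9%, beside 35.7% of all promoters and 38.1% of those of genes tested; it is contained in the full element. A match is a description of letters and says nothing about binding in these cells.

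Of the 4 cargo and retrieval receptors measured, 2 fell and 0 rose (50% called, beside 29.9% of all probe sets). KDELR1, the receptor that returns luminal ER proteins bearing a KDEL signal, read 5.67, 5.65, 5.65, 5.52 and 5.65 on the STK38 shRNA arrays, against 6.30, 6.48, 6.29, 6.43 and 6.43 on the control arrays. Its groups were tight and far apart, and KDELR1 fell 1.70-fold (log2 change -0.76 with SE 0.090, limma adjusted p = 1.59e-05). The other KDELR1 probe set, dimmer and over background on 4 of 5 arrays with the STK38 shRNA, had -0.38 and was not called (adjusted p = 0.0669).

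TMED10 and TMED2 belong to a family of transmembrane cargo receptors that cycle in COPI and COPII vesicles. TMED10 read 7.66, 7.57, 7.60, 7.66 and 7.67 with the STK38 shRNA, against 8.52, 8.26, 8.24, 8.13 and 8.24 with the non-target shRNA. There was no overlap, and TMED10 fell 1.56-fold (log2 change -0.64 with SE 0.078, limma adjusted p = 2.07e-05). Its other probe set read 5.45, 5.83, 5.34, 5.48 and 5.77 with the STK38 shRNA, against 7.82, 8.15, 8.02, 7.75 and 7.93 in controls. This is a 5.14-fold fall (log2 change -2.36 with SE 0.12, limma adjusted p = 3.08e-09), so the probe sets share a direction and differ in size.

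TMED2 read 8.77, 8.53, 8.47, 8.60 and 8.60 with the STK38 shRNA, against 8.39, 8.18, 8.26, 8.32 and 8.78 in controls. Non-target replicate 5 lay just above the highest STK38 shRNA array, and TMED2 was not called (log2 fold change 0.21, SE 0.10, adjusted p = 0.149); without that control array it was (0.31, adjusted p = 0.00713). LMAN1, a lectin that carries glycoproteins such as clotting factors out of the ER, read 2.73, 3.00, 2.52, 3.26 and 2.85 on the STK38 shRNA arrays and 2.81, 2.96, 3.09, 2.92 and 3.22 on the control arrays. It overlapped between the groups and was not called (log2 fold change -0.13, adjusted p = 0.563).

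**Figure D3:**
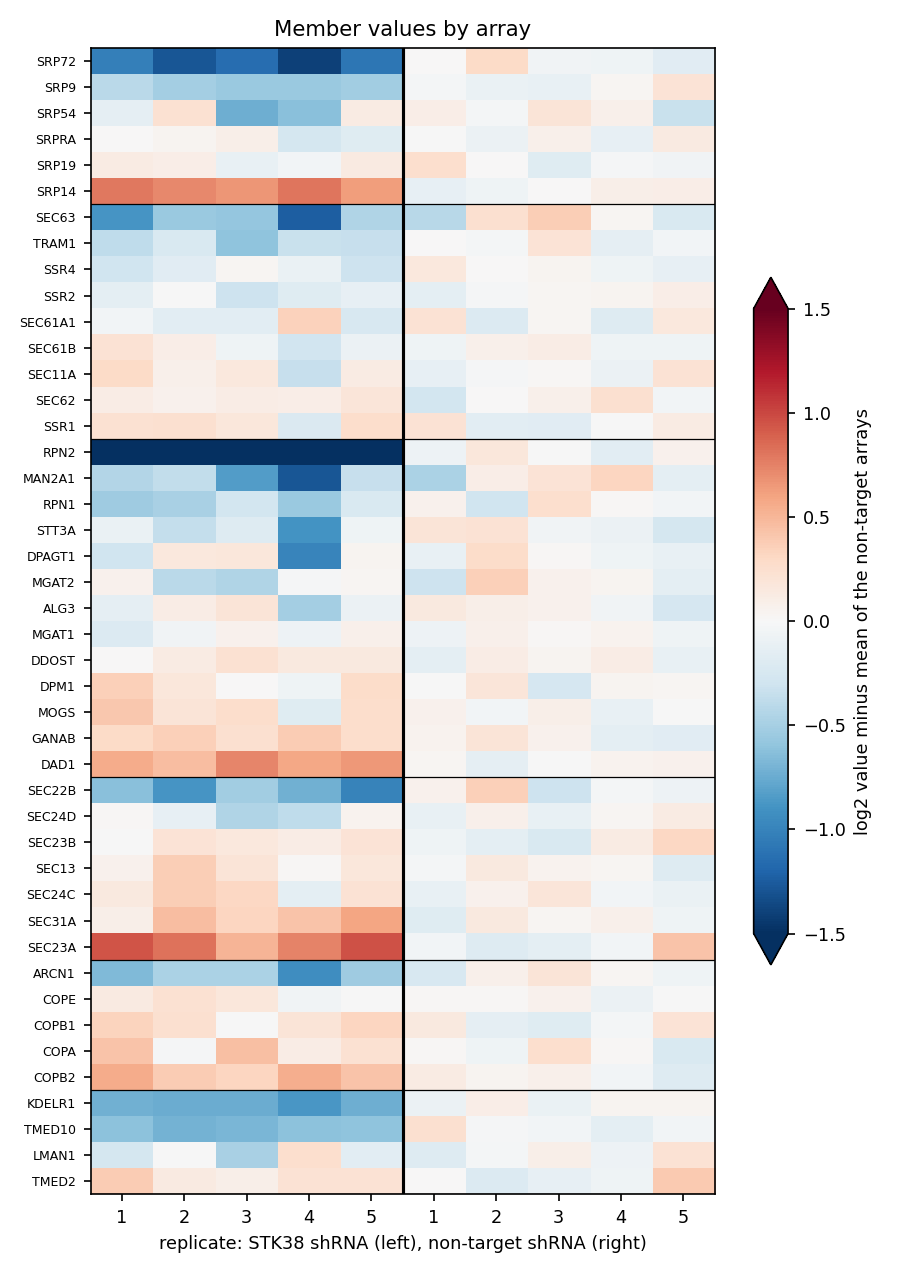
Value of each of the 44 measured genes (rows, grouped as signal recognition particle, translocon and signal peptidase, glycosylation, COPII, COPI and receptors from top to bottom) on each array (columns, STK38 shRNA left, non-target shRNA right), as the log2 value minus the mean of the non-target arrays. Blue is lower and red higher, with colours capped at 1.5; RPN2 and SRP72 are blue and SRP14, SEC23A and DAD1 red on all 5 STK38 shRNA arrays.

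**Figure D4:**
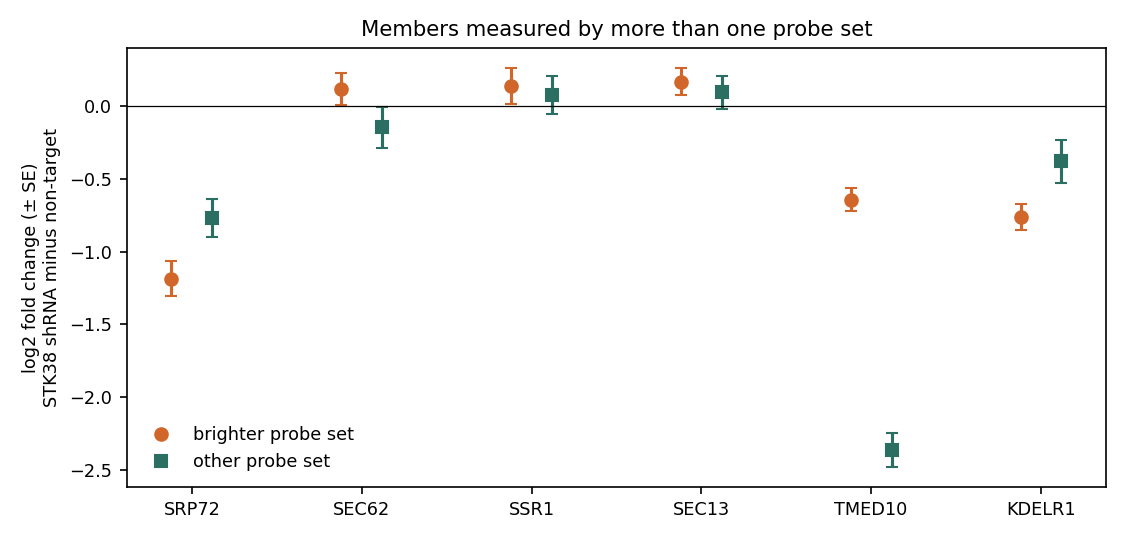
Log2 fold change (vertical axis, STK38 shRNA minus non-target shRNA, bars of 1 SE from limma, n = 5 arrays each) at the brighter probe set (circles) and the other probe set (squares) of the 6 genes with more than 1. SRP72, TMED10 and KDELR1 lie below 0 at each probe set, with TMED10 at -0.64 and -2.36.

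For 3 pairs of paralogues, both members were measured. The log2 value of one was subtracted from that of the other on every array, and the differences were compared between the groups by a two-sided exact permutation test over the arrays, whose smallest possible p is 0.00794, adjusted over the 3 pairs. The SEC23A minus SEC23B difference was 0.66 higher, with the STK38 shRNA arrays at 0.35 to 0.94 above the control mean and the control arrays at -0.16 to 0.12. SEC23B was near background on these arrays, so these values are given as a description only. TMED2 rose relative to TMED10 by 0.85, with the STK38 shRNA arrays at 0.77 to 1.00 above the control mean, against -0.24 to 0.44 for the control arrays (exact adjusted p = 0.0119), and by 2.57 when the other TMED10 probe set was used. For SEC24C relative to SEC24D the shift was 0.36, with overlapping arrays (0.13 to 0.76 with the STK38 shRNA and -0.22 to 0.29 in controls, exact adjusted p = 0.0317). Its call was lost on leaving out STK38 shRNA replicate 2 or 3 or non-target replicate 1, 2, 4 or 5 (exact adjusted p 0.0556 to 0.0714). SEC24D was also dim, above background on 4 STK38 shRNA and 5 control arrays, which limits this pair. Neither SEC24C nor SEC24D was called alone. Such a difference does not by itself say which member moved. Taken singly, TMED10 fell (log2 fold change -0.64) and TMED2 was not called (0.21).

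**Figure D5:**
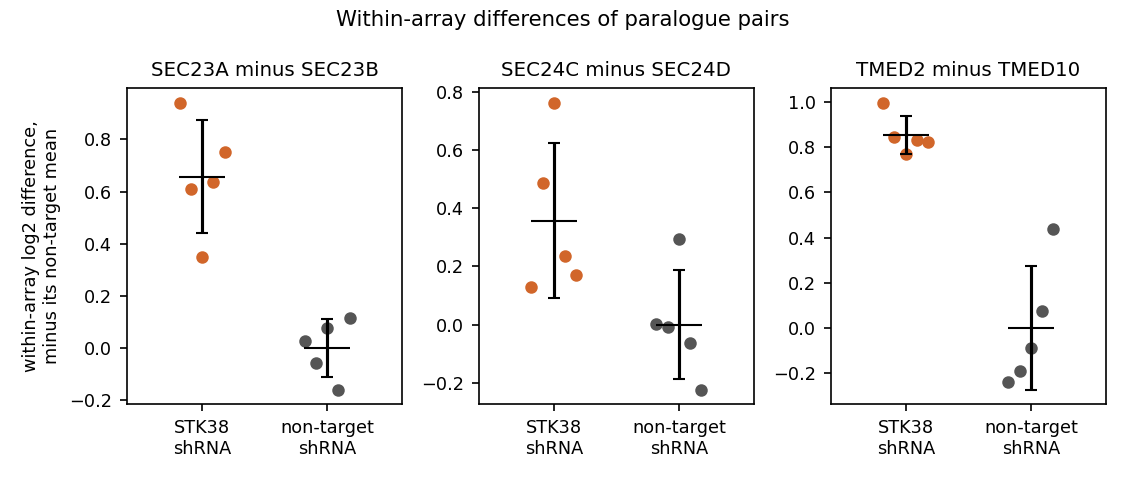
Difference between the log2 values of 2 paralogues on each array, minus its mean over the non-target arrays (vertical axis), for the STK38 shRNA arrays (orange) and the non-target arrays (grey), with group means and 1 SD (n = 5 each). All 5 STK38 shRNA arrays lie above all control arrays for SEC23A minus SEC23B and for TMED2 minus TMED10, and the groups overlap for SEC24C minus SEC24D.

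Further genes of the same pathway, a list of 94, had 43 members tested, of which 10 rose and 9 fell, with a median log2 fold change of 0.083. Of these, 44.2% were called, beside 29.9% of all probe sets, with the same limits on that comparison as for the members above. YIF1A and ERGIC3, membrane proteins that cycle between ER and Golgi, rose 1.79-fold and 1.67-fold (log2 fold changes 0.84 and 0.74, limma adjusted p = 4.36e-06 and 2.53e-05). MCFD2, the cofactor of LMAN1, fell 1.84-fold (log2 change -0.88 with SE 0.13, limma adjusted p = 8.65e-05), while LMAN1 itself was not called. MAN1A1, a Golgi mannosidase that acts ahead of MGAT1, fell by 1.02 on the log2 scale (adjusted p = 0.000136) and exceeded background on 2 of 5 arrays with the STK38 shRNA, so that size is uncertain.

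Among 6 tested regulators of the ER stress response, 2 fell and 1 rose, where 15.8% of all probe sets fell and 14.1% rose. XBP1, whose spliced form drives many secretory genes in plasma cells, read 7.89, 7.87, 7.60, 7.74 and 7.89 with the STK38 shRNA, against 8.77, 8.67, 8.76, 8.63 and 8.85 with the non-target shRNA. It fell 1.92-fold without overlap (log2 change -0.94 with SE 0.077, limma adjusted p = 4.87e-07) and 2.29-fold at its other probe set. Whether these probe sets tell spliced from unspliced XBP1 is not given in the sources used here. CREB3L2, an ER-anchored transcription factor, fell 1.52-fold (log2 fold change -0.61, adjusted p = 0.00850), and MBTPS1, the protease that activates ATF6 and related factors, rose 1.27-fold (log2 fold change 0.35, adjusted p = 0.0224), a call lost without STK38 shRNA replicate 1 or 5 or non-target replicate 2 or 4 (adjusted p 0.0504 to 0.0594). ATF6 had a log2 fold change of -0.26 (adjusted p = 0.151). XBP1 mRNA fell on arrays where 11 of the secretory genes fell and 6 rose, and its part in those changes was not tested.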

How the data were processed

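RNA from ST486 cells was measured on Affymetrix U95Av2 arrays, 5 per group. The values deposited by the authors are log2 signals, 1 per probe set and array, and GCRMA and affy are named without versions per the submitters' processing notes; the log2 scale was also read from the values. No reads or scanner files were used here, so background correction and normalization are the authors'.

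Of 12625 probe sets, 67 controls were left out, 10943 named 1 gene, 545 named several and 1070 none. Probe sets with a mean under the 40th percentile (1.93) were dropped, leaving 7535. limma 3.58.1 (R 4.3.3; lmFit, then eBayes with a trend, 8 residual degrees of freedom from the arrays) compared the groups, with Benjamini-Hochberg adjustment over all 7535 and a threshold of 0.05. An array's background was the 90th percentile of its non-human and reverse-strand control probe sets (2.36 to 2.66; 23 controls, or 17 without ACTB and GAPDH as an alternative). The fit was also run on simulated data with independent noise, in which far fewer probe sets changed than were called here. That setting differs from these arrays, so no conclusion about the calls is drawn from it.

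The members and lists were chosen with earlier results of these data known. Per-array values are given for up to 4 members of each group of genes, called members first, then by size of change. Of the further lists, XBP1, ATF6 and up to 4 more were named the same way, besides the genes named with the lipid-linked glycan. Alternatives were other filters, centring, quantile normalization, array weights, eBayes settings, a threshold of 0.01, the mean of probe sets, the replicate number as a block and leaving out each array. The number of arrays limits the precision.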

Additional observations from a re-analysis of the deposited data

Results flagged for a closer look

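Values are listed where 1 array of a group of 5 lay so far from the rest that its gap to the nearest array exceeded 0.71 of the group's whole range; chance flags about 1 in 20 groups, and 3 of the 88 groups of member values were picked out. SSR1 was low on STK38 shRNA replicate 4, at 5.42 where the nearest array of the group had 5.81 (a gap of 0.808 of the range). KDELR1 was low on the same array, at 5.52 against 5.65 (0.865 of the range). SEC23A was high on non-target replicate 5, at 7.25 against 6.78 (0.743 of the range).

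STK38 shRNA replicate 4 also stood apart as a whole. Its 75th percentile was 3.53, where the nearest array of the group had 3.93 (0.823 of the range), its median was 2.25 against 2.16 (0.749), and its mean correlation with the arrays of its group was 0.982 against 0.992 (0.965).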

How the results depend on the processing

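Of the 17 called members, 13 kept their call in every alternative fit; of these, KDELR1 was not called at its other probe set (-0.38, adjusted p = 0.0669). RPN1 lost it at a threshold of 0.01, and MAN2A1, SEC31A and TRAM1 there and under settings given with their values. Of the 26 uncalled, 6 were called under some alternative (COPB1, MOGS, SEC24C, SSR1, SSR4 and TMED2). At 0.01, 1494 probe sets were called in place of 2256, and 6 further secretory genes rose in place of 10. With array weights 10 members rose in place of 6. The median change of the members, -0.040, was 0.010 with centring on the 75th percentile and 0.014 with quantile normalization. ER stress regulators that rose numbered 2 with that centring, 2 with array weights and 0 at 0.01, against 1. Leaving out 1 array at a time gave 1947 to 2817 probe sets called, 5 to 7 members higher, 10 to 11 lower, a members' median of -0.074 to 0.021 (highest without STK38 shRNA replicate 4), 9 to 11 further genes higher and 8 to 10 lower, and 0 to 2 regulators higher and 2 lower. It gave 0.59 to 0.73 for SEC23A minus SEC23B, 0.26 to 0.43 for SEC24C minus SEC24D and 0.79 to 0.96 for TMED2 minus TMED10. Replicate numbers did not pair the arrays (correlations of deviations -0.21 to 0.19). With them as a block 2159 probe sets, 6 members higher and 11 lower were called, and the paralogue differences of 0.66, 0.36 and 0.85 each had an exact adjusted p of 0.0625, the smallest that 5 pairs allow. Searched on one strand, the TGACGTG core matched 7.14% of the members' promoters, against 21.4% on both, and CCAAT 23.8%, beside 1.12% and 20.8% of all promoters. The TMED10 probe set in the pair and the promoters of tested genes as background were chosen after seeing the data. The cause of these differences was not tested. SEC23B, MGAT2, DPAGT1, SEC24D and SEC61A1 were limited by signal near background and were not above it on every array. SEC31A and LMAN1 were above background on every array, but by little on some. Without the ACTB and GAPDH controls the members above background on every array numbered 42 in place of 39.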
